A study of Mus musculus with 19 samples.

Results

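Rab GTPases were followed through the type 1 conventional dendritic cells (DC1) of this series, as the genes whose only annotated symbol is Rab, a number and at most 1 letter, each read from the 1 of its probe sets that had the highest mean. The rule found 58 genes among 22180 in the spleen table and 59 among 19938 in the table of skin-draining lymph nodes (SDLN), with 58 genes in both. Rab4b was named by a probe set of its own in the SDLN table alone. The rule used names and brightness and no difference between groups.

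Rab proteins are small GTPases that mark the membranes of the cell and switch between a GTP-bound form, which recruits effectors such as tethers and motors, and a GDP-bound form, which GDI proteins extract from the membrane. Exchange factors (GEFs) turn them on and GTPase-activating proteins (GAPs) turn them off, so that the set of active Rabs on a vesicle decides where it goes and what it fuses with. Dendritic cells depend on this traffic to take up antigen, to hold or degrade it in phagosomes and endosomes, to load MHC molecules and to carry them to the surface, and DC1 are known for cross-presentation, the display of engulfed antigen on MHC class I.

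All mice were C57Bl/6j, and 7 groups of sorted DC1 were hybridised to Affymetrix arrays. The spleen groups, from female mice, were WT Irf8VENUS- (2 arrays), WT Irf8VENUS+ (3) and Batf3-/- Irf8VENUS+ (3), where Irf8VENUS is a fluorescent reporter of the transcription factor gene Irf8 and Batf3 is a transcription factor gene that DC1 development depends on. The SDLN groups all carried Irf8VENUS+ and were resident WT (3), migratory WT (2), resident Batf3-/- (3) and migratory Batf3-/- (3). Resident DC1 were sorted as MHCIIint CD11chi and migratory DC1, which come from the skin, as MHCIIhi CD11cint, both from B220- EpCam- CD24+ CD172- cells of inguinal, cervical and brachial nodes. The spleen sort was B220- SiglecH- CD11c+ MHCII+ with CD24 and XCR1, except that CD24 without XCR1 gated replicate 3 in either Irf8VENUS+ group, and its protocol lists CD172a+ where the node protocol lists CD172-. Ages are not given in the labels, nor is it said that each array stands for another mouse, so p-values refer to array-to-array spread, some of it possibly technical. Same-numbered SDLN arrays of all groups carry a shared code in their titles, whose meaning the labels do not give.

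The deleted gene matched the labels. Batf3 read 8.15, 8.62 and 8.37 in resident WT, 9.15 and 9.23 in migratory WT, 5.96, 5.76 and 5.50 in resident Batf3-/- and 6.02, 5.87 and 6.17 in migratory Batf3-/- DC1, and the spleen Batf3-/- arrays, at 6.35, 5.29 and 7.08, lay below all 5 WT spleen arrays. Of the 10 cDC1 markers, the mean level per array was 10.25 to 10.52 in resident WT and 9.34 to 9.38 in resident Batf3-/- DC1, but 7.26 to 7.88 in migratory WT and 6.67 to 6.70 in migratory Batf3-/- DC1. That list holds Irf8 and Batf3 itself, so part of its fall between the genotypes is the deletion. The defining cDC1 marker Xcr1 read 11.05, 11.09 and 11.34 in resident WT, 7.85 and 8.07 in migratory WT, 9.63, 9.53 and 10.20 in resident Batf3-/- and 6.06, 6.46 and 5.83 in migratory Batf3-/- DC1, lower on all migratory than on all resident arrays. Migratory DC markers (7 of 9 measured, Ccr7 among them) averaged 10.15 to 10.36 in migratory WT and 10.45 to 10.97 in migratory Batf3-/- DC1, above 6.33 to 7.00 and 7.10 to 8.25 in the resident groups. B cell markers (4 of 5 measured) averaged 6.27 to 6.52 on the migratory WT arrays and 4.51 to 6.06 on the other 9, and T cell markers (5 of 6 measured) 6.66 to 7.54 and 6.07 to 7.27. On migration in WT, 4 of 4 tested B cell and 3 of 5 T cell markers were called higher, and their part in the Rab differences was not tested. The SDLN arrays also differed in the standard deviation (SD) of all their log2 values, which was 1.96 and 2.03 in migratory WT, 2.16, 2.15 and 2.07 in migratory Batf3-/- and 2.16 to 2.23 in the resident groups. These values moved with the migratory WT group in particular. Rab results that changed when the SD of each array entered the fit are given as such below. For the genes that act on or with Rabs, no such fit is given.

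Values below are log2 intensities, and differences are log2 differences with the standard error (SE) of the limma fit. A gene was called when its Benjamini-Hochberg adjusted p over all genes tested in its table was under 0.05. Of the Rab genes, 49 of 58 in spleen and 46 of 59 in SDLN were bright enough to be tested, that is, they were at or above the table's median value (5.04 and 4.82) on 2 arrays or more. A lower value can reflect fewer expressing cells or less RNA in each, which bulk arrays cannot tell apart.

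The first question was which Rabs differ between resident and migratory DC1. In WT DC1, 11 of 46 Rab genes were higher and 15 lower in the migratory cells, where 16.0% of all genes tested were called higher, 33.2% lower and 49.2% in either direction. In Batf3-/- DC1, 11 were higher and 9 lower, where 14.1% of all genes tested were called higher, 22.6% lower and 36.6% in either direction. The Rab counts are read against these shares of comparisons in which a large part of all genes moved. Centring each array on its median moved the median difference of all genes in WT from -0.16 to -0.32 and gave 9 higher and 21 lower Rab genes (1299 and 4659 of all genes, in place of 1903 and 3967), while quantile normalization moved it to -0.07 and gave 10 and 12 (2245 and 3223). The Rab genes called in the deposited scaling kept their sign under both. The median difference of the Rab genes was -0.21 in WT and 0.04 in Batf3-/- DC1, beside -0.16 and -0.02 over all genes tested. The 2 comparisons share no array, but both come from the same fit and filter, with the spread of each gene estimated over all SDLN groups together. The 2 comparisons are therefore not fully independent. They called 10 Rab genes higher in both (Rab8b, Rab9, Rab12, Rab13, Rab20, Rab21, Rab22a, Rab23, Rab26 and Rab29), which is 90.9% of either list, where the overlap over all genes was 51.9% of the WT list and 58.9% of the Batf3-/- list. They called 6 lower in both (Rab3d, Rab7, Rab7b, Rab24, Rab32 and Rab43), 40.0% of the WT list and 66.7% of the Batf3-/- list, against 58.2% and 85.6% over all genes. No Rab gene was called in opposite directions, as 27 of all genes were. A call in 1 genotype and not in the other is no test of the difference, and tested directly that difference was called for Rab27a alone, with others called under some alternatives given below. Of the genes counted as higher, Rab23 (1 of 6 resident arrays) and Rab25 (0 of 6) reached the filter level almost wholly through the migratory arrays and had to differ to be tested, so they add no support to these counts. On the arrays, all 26 Rab genes called in WT and all 20 called in Batf3-/- DC1 had migratory values entirely above or below the resident ones. The same held for 36 of all 46 Rab genes tested in WT and for 25 of 46 in Batf3-/- DC1. It was not counted over all genes and was read on the arrays that gave the calls, so it adds no support to them.

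**Figure D1:**
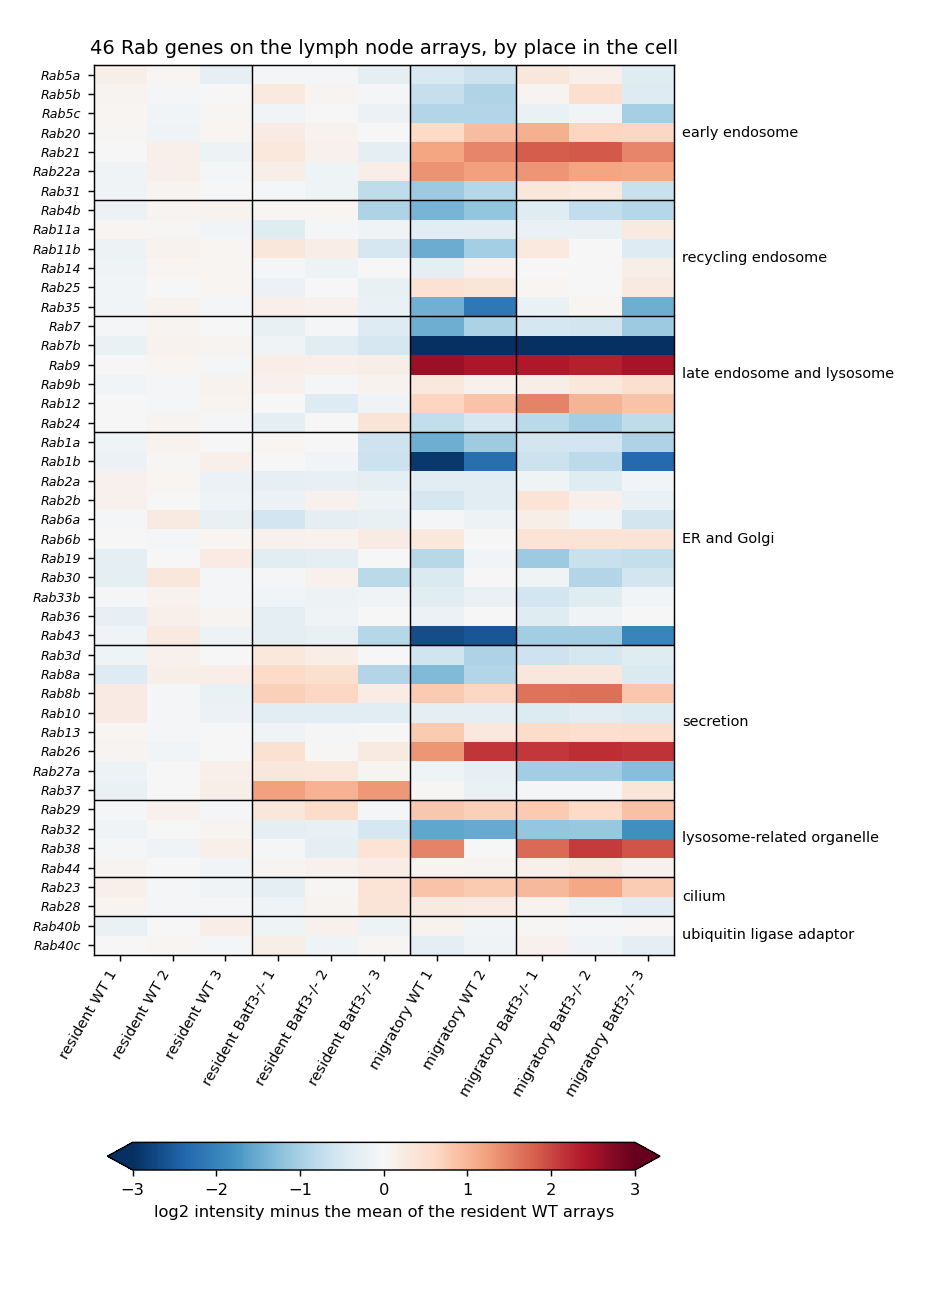
Heat map of the 46 tested Rab genes (rows, ordered by where the protein acts) on the 11 SDLN arrays (columns, numbered by replicate), as log2 intensity minus the mean of the 3 resident WT arrays, with the colour scale ending at 3 in either direction. Rab7b is lowest and Rab9 highest on all 5 migratory arrays, while Rab37 stands out on the 3 resident Batf3-/- arrays.

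**Figure D2:**
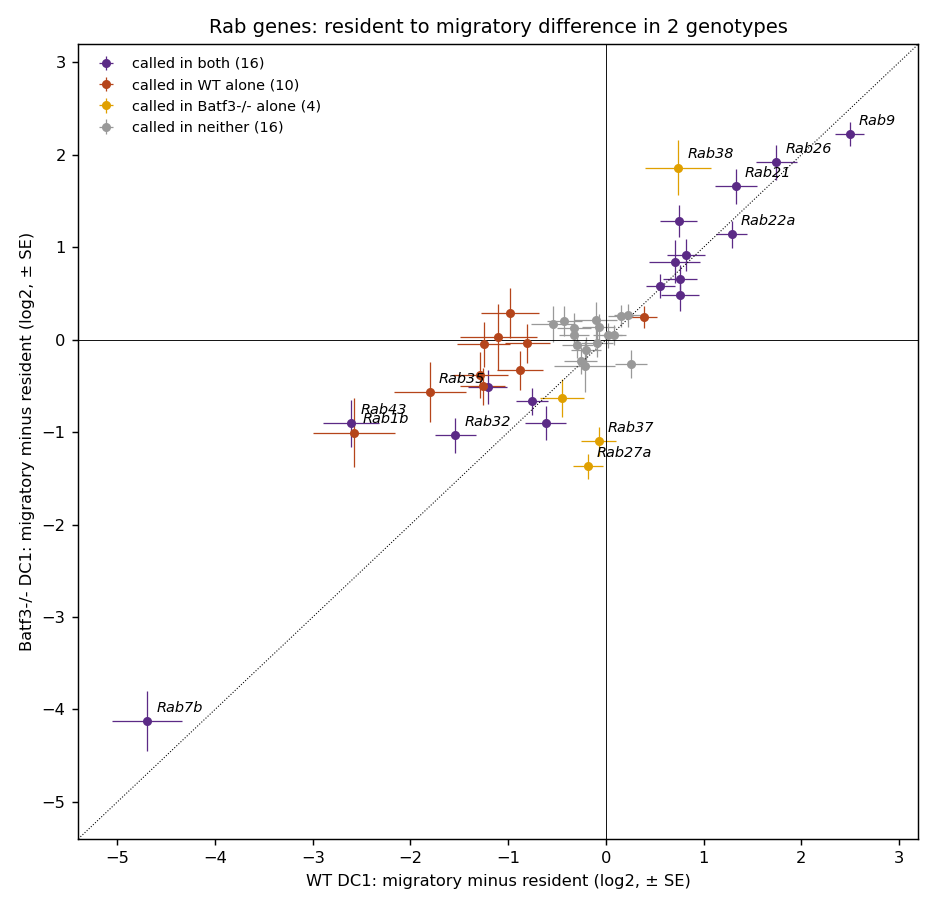
Migratory minus resident log2 difference of the 46 tested Rab genes in WT (horizontal axis) and Batf3-/- DC1 (vertical axis), with bars for ± 1 SE and a dotted line of equal differences. The 16 genes called in both lie in the lower left and upper right, and the 10 called in WT alone lie mostly left of 0 at small differences in Batf3-/- DC1.

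Rabs of the late endosome and lysosome held the extremes in both directions. Rab7b, which acts between late endosomes and the trans-Golgi network, read 9.73, 10.04 and 10.02 on the resident WT arrays, 4.78 and 5.69 on the migratory WT arrays, 9.82, 9.61 and 9.41 on the resident Batf3-/- arrays and 6.07, 5.70 and 4.69 on the migratory Batf3-/- arrays. Its migratory and resident arrays were well apart, with no overlap, in either genotype. The difference was -4.70 ± 0.36 in WT (25.9-fold lower, adjusted p = 1.45e-06) and -4.13 ± 0.32 in Batf3-/- DC1 (17.5-fold lower, adjusted p = 1.14e-06). Rab9, which returns mannose 6-phosphate receptors from late endosomes to the trans-Golgi network, went the other way and read 7.56, 7.59 and 7.48 on the resident WT arrays, 10.11 and 9.97 on the migratory WT arrays, 7.74, 7.69 and 7.73 on the resident Batf3-/- arrays and 9.95, 9.87 and 10.03 on the migratory Batf3-/- arrays. The groups did not overlap, and Rab9 rose by 2.50 ± 0.15 in WT (adjusted p = 2.98e-07) and by 2.23 ± 0.13 in Batf3-/- DC1 (adjusted p = 1.71e-07).

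The other late endosomal Rabs moved less. Rab7, the Rab of endosome maturation and fusion with lysosomes, read 10.60, 10.73 and 10.64 in resident WT, 9.19 and 9.70 in migratory WT, 10.44, 10.61 and 10.28 in resident Batf3-/- and 10.13, 10.11 and 9.55 in migratory Batf3-/- DC1. All 5 migratory arrays lay below all 6 resident ones, with differences of -1.21 ± 0.20 in WT and -0.51 ± 0.18 in Batf3-/- DC1 (adjusted p = 0.000438 and 0.0422). The Batf3-/- call was lost without resident replicate 1 (-0.51, adjusted p = 0.0933), resident replicate 2 (-0.43, adjusted p = 0.153) or migratory replicate 3 (-0.32, adjusted p = 0.125). Rab24, which has been linked to autophagy, read 8.23, 8.31 and 8.17 in resident WT, 7.51 and 7.74 in migratory WT, 7.95, 8.24 and 8.63 in resident Batf3-/- and 7.44, 7.22 and 7.48 in migratory Batf3-/- DC1. It fell by 0.62 ± 0.21 in WT (adjusted p = 0.0258) and by 0.90 ± 0.18 in Batf3-/- DC1 (adjusted p = 0.00211). The WT call was lost without migratory WT replicate 1 (-0.50, adjusted p = 0.161) and without resident WT replicate 1, 2 or 3 (differences of -0.62, -0.58 and -0.65). Rab12, which steers receptors towards lysosomes, read 5.39, 5.35 and 5.48 in resident WT, 6.04 and 6.26 in migratory WT, 5.39, 5.01 and 5.30 in resident Batf3-/- and 6.89, 6.41 and 6.25 in migratory Batf3-/- DC1. It rose in both genotypes, by 0.75 ± 0.19 in WT and 1.29 ± 0.17 in Batf3-/- DC1, and the WT call was lost without migratory WT replicate 2 (0.64, adjusted p = 0.0503). Rab9b, the second Rab9 gene, was not called (0.22 and 0.26).

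Among the 7 early endosomal Rabs tested, 3 rose in both genotypes, while Rab5b, Rab5c and Rab31 were called lower in WT and not in Batf3-/- DC1. Over all genes 16.0% were higher and 33.2% lower in WT, and 14.1% and 22.6% in Batf3-/- DC1, from which so few genes cannot be set apart. Rab21, which carries integrins through early endosomes, read 7.18, 7.32 and 7.02 on the resident WT arrays, 8.36 and 8.64 on the migratory WT arrays, 7.49, 7.31 and 6.88 on the resident Batf3-/- arrays and 9.0, 9.01 and 8.63 on the migratory Batf3-/- arrays. Rab22a, which sorts cargo from early to recycling endosomes, read 5.88, 6.15 and 5.93 on the resident WT arrays, 7.32 and 7.22 on the migratory WT arrays, 6.16, 5.86 and 6.18 on the resident Batf3-/- arrays and 7.31, 7.18 and 7.14 on the migratory Batf3-/- arrays. Rab20, found on endosomes and phagosomes, read 5.38, 5.24 and 5.41 on the resident WT arrays, 5.94 and 6.27 on the migratory WT arrays, 5.58, 5.44 and 5.36 on the resident Batf3-/- arrays and 6.41, 5.98 and 5.95 on the migratory Batf3-/- arrays. For each of the 3, every migratory array lay above every resident one. The differences in WT and Batf3-/- DC1 were 1.33 ± 0.22 and 1.66 ± 0.19 for Rab21, 1.29 ± 0.16 and 1.14 ± 0.15 for Rab22a, and 0.76 ± 0.17 and 0.65 ± 0.15 for Rab20, with adjusted p from 2.92e-05 to 0.00481.

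The 3 Rab5 proteins drive fusion of early endosomes. Rab5b read 8.50, 8.37 and 8.43 in resident WT, 7.74 and 7.52 in migratory WT, 8.73, 8.52 and 8.40 in resident Batf3-/- and 8.52, 8.95 and 8.06 in migratory Batf3-/- DC1. Rab5c read 8.44, 8.30 and 8.42 in resident WT, 7.51 and 7.51 in migratory WT, 8.29, 8.37 and 8.21 in resident Batf3-/- and 8.18, 8.31 and 7.39 in migratory Batf3-/- DC1. Rab5b was lowest on the migratory WT arrays, and Rab5c was low on these and on migratory Batf3-/- replicate 3. Rab5b fell by 0.80 ± 0.23 (adjusted p = 0.0127) and Rab5c by 0.88 ± 0.24 (adjusted p = 0.00938) in WT, against -0.04 ± 0.21 and -0.33 ± 0.21 in Batf3-/- DC1. The call of Rab5b was lost without migratory WT replicate 2 (-0.70, adjusted p = 0.0797) and that of Rab5c without migratory WT replicate 1 (-0.87, adjusted p = 0.0508). Rab5a missed the threshold in WT (-0.55 ± 0.22, adjusted p = 0.0555), at 7.50, 7.38 and 7.08 in resident WT, 6.88 and 6.68 in migratory WT, 7.27, 7.27 and 7.03 in resident Batf3-/- and 7.65, 7.48 and 6.96 in migratory Batf3-/- DC1. Rab31, which acts between the trans-Golgi network and endosomes, read 8.11, 8.30 and 8.24 in resident WT, 7.12 and 7.35 in migratory WT, 8.19, 8.09 and 7.46 in resident Batf3-/- and 8.56, 8.50 and 7.55 in migratory Batf3-/- DC1. It differed by -0.98 ± 0.30 in WT and 0.29 ± 0.27 in Batf3-/- DC1, and its WT call was lost without migratory WT replicate 1 (-0.86, adjusted p = 0.109) or resident WT replicate 2 (-0.94, adjusted p = 0.0501).

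Recycling Rabs return cargo to the plasma membrane, and of the 6 tested, 3 were lower and 1 higher in migratory WT DC1 and none was called in Batf3-/- DC1. So few genes cannot be set apart from the shares over all genes (33.2% lower and 16.0% higher in WT, 22.6% and 14.1% in Batf3-/- DC1). Rab11b, of the slow recycling route, read 8.29, 8.55 and 8.50 in resident WT, 6.96 and 7.43 in migratory WT, 8.79, 8.64 and 7.94 in resident Batf3-/- and 8.73, 8.43 and 8.06 in migratory Batf3-/- DC1. Rab35, of the fast route, read 7.49, 7.68 and 7.55 in resident WT, 6.13 and 5.42 in migratory WT, 7.73, 7.72 and 7.37 in resident Batf3-/- and 7.38, 7.63 and 6.11 in migratory Batf3-/- DC1. Rab4b, of the same route, read 9.26, 9.52 and 9.55 in resident WT, 8.05 and 8.27 in migratory WT, 9.51, 9.50 and 8.51 in resident Batf3-/- and 9.08, 8.70 and 8.58 in migratory Batf3-/- DC1. All 3 were lowest on the migratory WT arrays except that migratory Batf3-/- replicate 3 was as low for Rab35, and Rab4b was also low on resident Batf3-/- replicate 3 and migratory Batf3-/- replicates 2 and 3. WT differences were -1.25 ± 0.27 for Rab11b, -1.80 ± 0.37 for Rab35 and -1.28 ± 0.28 for Rab4b (adjusted p = 0.00257, 0.00164 and 0.00247), and Batf3-/- differences were -0.05, -0.57 and -0.38. Rab25, the epithelial relative of Rab11, read 4.54, 4.64 and 4.69 in resident WT, 5.05 and 4.98 in migratory WT, 4.44, 4.64 and 4.40 in resident Batf3-/- and 4.69, 4.64 and 4.88 in migratory Batf3-/- DC1, close to the filter level, which none of its resident arrays reached. Its rise of 0.39 ± 0.13 in WT lost its call without resident WT replicate 1 or 2 or migratory WT replicate 1 or 2 (differences of 0.35 to 0.42, adjusted p from 0.0568 to 0.115).

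None of the 11 ER and Golgi Rabs tested was called higher on migration in either genotype, and 3 were called lower in WT and 2 in Batf3-/- DC1. Over all genes 16.0% were higher and 33.2% lower in WT, and 14.1% and 22.6% in Batf3-/- DC1. The counts are too few to be set apart from these shares. Rab43, a Golgi Rab that mouse DC1 use in cross-presentation, read 9.58, 9.96 and 9.54 on the resident WT arrays, 7.04 and 7.13 on the migratory WT arrays, 9.42, 9.48 and 8.84 on the resident Batf3-/- arrays and 8.65, 8.64 and 7.72 on the migratory Batf3-/- arrays. It was lowest on the migratory WT arrays, and the migratory Batf3-/- arrays lay between these and the resident ones. The difference was -2.61 ± 0.29 in WT (6.1-fold lower, adjusted p = 2.13e-05) and -0.91 ± 0.26 in Batf3-/- DC1 (1.87-fold lower, adjusted p = 0.0146), and the Batf3-/- call was lost without resident Batf3-/- replicate 1 (-0.82, adjusted p = 0.0561) or 2 (-0.79, adjusted p = 0.0661) and fell to -0.60 without migratory Batf3-/- replicate 3. Rab1a and Rab1b, the Rabs of ER to Golgi transport, were called lower in WT and not in Batf3-/- DC1. Rab1b read 8.62, 8.84 and 8.94 in resident WT, 5.91 and 6.53 in migratory WT, 8.78, 8.73 and 8.15 in resident Batf3-/- and 8.16, 8.01 and 6.47 in migratory Batf3-/- DC1. Rab1a read 9.44, 9.67 and 9.57 in resident WT, 8.10 and 8.50 in migratory WT, 9.63, 9.59 and 8.94 in resident Batf3-/- and 9.02, 8.98 and 8.63 in migratory Batf3-/- DC1. For Rab1b, migratory Batf3-/- replicate 3 matched the migratory WT arrays while replicates 1 and 2 lay near the resident ones. WT differences were -2.58 ± 0.42 for Rab1b (adjusted p = 0.000356) and -1.26 ± 0.23 for Rab1a (adjusted p = 0.000762). In Batf3-/- DC1, Rab1b missed the threshold at -1.0 ± 0.37 (adjusted p = 0.0520). Rab19 read 5.26, 5.54 and 5.76 in resident WT, 4.70 and 5.44 in migratory WT, 5.20, 5.24 and 5.53 in resident Batf3-/- and 4.43, 4.85 and 4.80 in migratory Batf3-/- DC1. It was called lower in Batf3-/- DC1 alone (-0.63 ± 0.20, adjusted p = 0.0274), a call lost without resident Batf3-/- replicate 2 (-0.67, adjusted p = 0.0534), resident replicate 3 (-0.53, adjusted p = 0.0930) or migratory Batf3-/- replicate 1 (-0.50, adjusted p = 0.103).

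Of the 8 secretory Rabs tested, 3 rose in both genotypes, while 2 fell in WT (Rab3d and Rab8a) and 3 in Batf3-/- DC1 (Rab3d, Rab27a and Rab37). Over all genes 16.0% were called higher and 33.2% lower in WT, and 14.1% and 22.6% in Batf3-/- DC1. The counts are too few to be set apart from these shares. Values of Rab27a and Rab37 are given with the Batf3 comparisons below. Rab26, known from the maturation of secretory granules, read 4.83, 4.66 and 4.78 on the resident WT arrays, 6.09 and 6.91 on the migratory WT arrays, 5.21, 4.79 and 5.01 on the resident Batf3-/- arrays and 6.87, 6.98 and 6.93 on the migratory Batf3-/- arrays. All 5 migratory arrays lay above the 6 resident ones, and Rab26 rose by 1.74 ± 0.21 in WT (adjusted p = 4.05e-05) and by 1.92 ± 0.19 in Batf3-/- DC1 (adjusted p = 7.04e-06). Rab8b, of transport from the Golgi to the surface, read 8.35, 8.05 and 7.90 in resident WT, 8.88 and 8.73 in migratory WT, 8.80, 8.71 and 8.33 in resident Batf3-/- and 9.72, 9.74 and 8.91 in migratory Batf3-/- DC1. Rab13, a Rab of polarised delivery to the plasma membrane, read 4.94, 4.82 and 4.89 in resident WT, 5.68 and 5.21 in migratory WT, 4.78, 4.84 and 4.90 in resident Batf3-/- and 5.44, 5.39 and 5.42 in migratory Batf3-/- DC1. Rab8b rose by 0.70 ± 0.26 and 0.85 ± 0.23, and Rab13 by 0.56 ± 0.15 and 0.58 ± 0.13. The WT call of Rab8b was lost without migratory WT replicate 1 (0.63, adjusted p = 0.171) or 2 (0.78, adjusted p = 0.0826) and without resident WT replicate 2 or 3 (0.68 and 0.60), and its Batf3-/- call without migratory Batf3-/- replicate 1 or 2 (0.72 and 0.70). The WT value of Rab13 was 0.32 without migratory WT replicate 1 and no longer called.

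Rab8a, the closest relative of Rab8b, did not rise with it: it read 7.90, 8.48 and 8.49 in resident WT, 6.98 and 7.40 in migratory WT, 8.85, 8.76 and 7.41 in resident Batf3-/- and 8.63, 8.62 and 7.87 in migratory Batf3-/- DC1. Its difference was -1.10 ± 0.40 in WT (adjusted p = 0.0356) and 0.03 ± 0.35 in Batf3-/- DC1. The WT call of Rab8a was lost without migratory WT replicate 1 (-0.89, adjusted p = 0.202) or 2 (-1.31, adjusted p = 0.0583) or resident WT replicate 2 or 3 (-1.01 and -1.0). Rab3d, of regulated exocytosis, read 5.78, 6.04 and 5.92 in resident WT, 5.32 and 4.99 in migratory WT, 6.23, 6.11 and 5.89 in resident Batf3-/- and 5.29, 5.40 and 5.56 in migratory Batf3-/- DC1. It fell in both genotypes (-0.76 ± 0.16 and -0.67 ± 0.15). Rab10, which also serves exocytosis, was not called (-0.29 and -0.05).

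Rabs of lysosome-related organelles split within a pair of relatives. Rab32, which with Rab38 builds melanosomes and other lysosome-related organelles, read 9.58, 9.71 and 9.78 on the resident WT arrays, 8.13 and 8.17 on the migratory WT arrays, 9.40, 9.47 and 9.17 on the resident Batf3-/- arrays and 8.54, 8.55 and 7.85 on the migratory Batf3-/- arrays. It fell by 1.54 ± 0.21 in WT (adjusted p = 0.000111) and by 1.03 ± 0.19 in Batf3-/- DC1 (adjusted p = 0.000975). Rab38 read 4.73, 4.70 and 4.95 on the resident WT arrays, 6.29 and 4.78 on the migratory WT arrays, 4.76, 4.54 and 5.20 on the resident Batf3-/- arrays and 6.50, 6.90 and 6.68 on the migratory Batf3-/- arrays. It rose in Batf3-/- DC1 (1.86 ± 0.30, adjusted p = 0.000374), while the 2 migratory WT arrays disagreed, so that its WT difference of 0.74 ± 0.34 (adjusted p = 0.0855) became 1.49 ± 0.25 without migratory WT replicate 2. Rab29, which recruits the kinase LRRK2 to membranes, read 7.63, 7.81 and 7.63 in resident WT, 8.50 and 8.40 in migratory WT, 8.02, 8.23 and 7.63 in resident Batf3-/- and 8.47, 8.30 and 8.57 in migratory Batf3-/- DC1. It rose by 0.76 ± 0.20 and 0.48 ± 0.17. Its Batf3-/- call was lost without resident Batf3-/- replicate 1 or 3 (0.51 and 0.32) or migratory Batf3-/- replicate 1 or 3 (0.47 and 0.42). Rab7b and Rab29 lie on chromosome 1 with 3 protein-coding genes between them, per RefSeq GRCm38.p6, and moved in opposite directions. Rab23, known from the cilium as a brake on Hedgehog signalling, read 4.71, 4.52 and 4.46 in resident WT, 5.41 and 5.35 in migratory WT, 4.27, 4.60 and 4.98 in resident Batf3-/- and 5.55, 5.73 and 5.33 in migratory Batf3-/- DC1. It rose by 0.82 ± 0.19 in WT and 0.92 ± 0.17 in Batf3-/- DC1 (adjusted p = 0.00402 and 0.00113), though it was tested through the arrays on which it is high.

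The averages of the Rab genes called on migration differed between migratory arrays with small and larger SDs of their values, in 3 sets chosen on these same arrays and described without a test. The SDs were 1.96 and 2.03 for migratory WT replicates 1 and 2, and 2.16, 2.15 and 2.07 for migratory Batf3-/- replicates 1, 2 and 3. Averages relative to the resident WT mean follow in that order of arrays. The 9 genes called lower in WT and not in Batf3-/- DC1 (Rab1a, Rab1b, Rab4b, Rab5b, Rab5c, Rab8a, Rab11b, Rab31 and Rab35) averaged -1.41, -1.25, -0.10, -0.11 and -0.94. The 6 genes lower in both averaged -2.03, -1.78, -1.33, -1.42 and -1.88. The 10 genes higher in both averaged 1.09, 1.15, 1.42, 1.32 and 1.17. All 3 sets thus stood lower on the 3 arrays with the smaller SDs, and resident Batf3-/- replicate 3 (SD 2.16) was at -0.53 for the 9 genes. The 9 were selected for low values on the migratory WT arrays, so this is no trait shown to be theirs.

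When the SD of each array entered the fit as a term, 6 of the 26 WT calls passed: Rab9 (2.25 ± 0.29, adjusted p = 0.00189), Rab21 (2.46 ± 0.37), Rab26 (2.25 ± 0.52), Rab8b (1.90 ± 0.51) and Rab20 (1.42 ± 0.38) higher, and Rab7b (-2.26 ± 0.49, adjusted p = 0.0157) lower. Among the calls that were lost, some differences kept much of their size or grew, with a larger SE, as for Rab22a (1.17 ± 0.39), Rab12 (1.26 ± 0.46), Rab23 (0.71 ± 0.50), Rab29 (0.99 ± 0.45), Rab3d (-1.01 ± 0.41) and Rab24 (-0.99 ± 0.47). Others shrank, as for Rab43 (-0.79 ± 0.43), Rab32 (-0.43 ± 0.37) and Rab35 (-0.36 ± 0.83), and 8 changed sign. In Batf3-/- DC1, 15 of the 20 calls passed in that fit. The spread went with the cell type and genotype labels here, so their parts in the WT differences cannot be told apart.

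**Figure D3:**
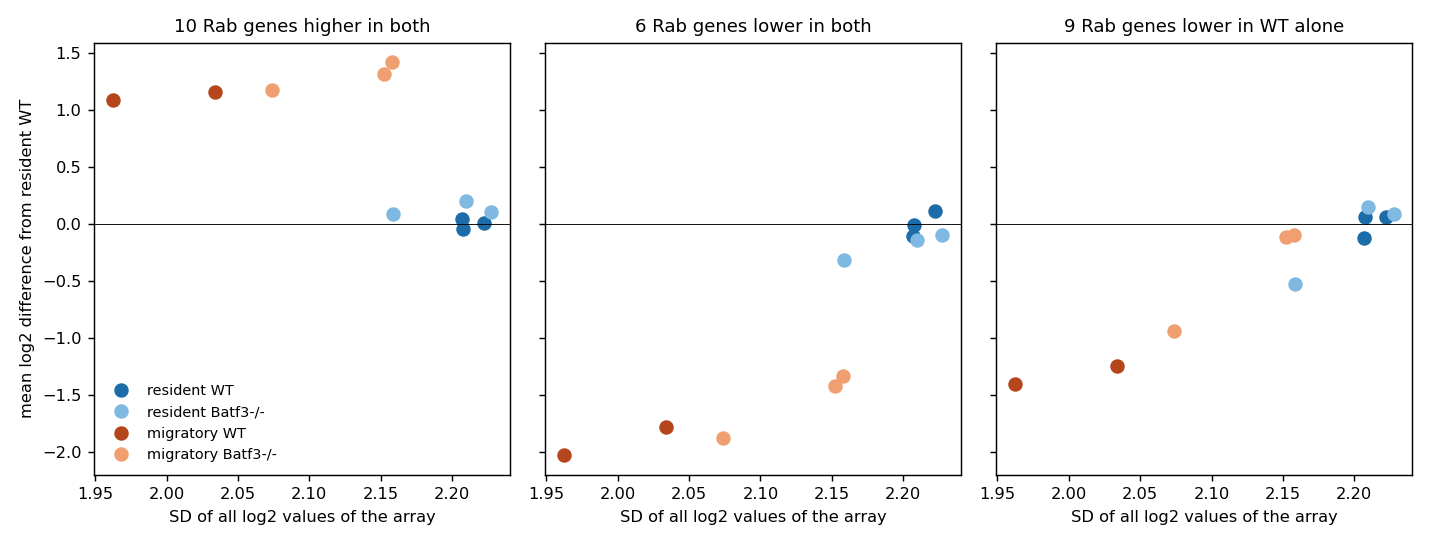
Average log2 difference from the resident WT mean (vertical axis) against the SD of all log2 values of the array (horizontal axis), 1 point per SDLN array, for the 10 Rab genes called higher on migration in both genotypes, the 6 called lower in both and the 9 called lower in WT alone. The 9 genes of the right panel are low on the 3 arrays with SDs of 1.96, 2.03 and 2.07 and close to 0 on migratory Batf3-/- replicates 1 and 2.

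Promoters are shown for genes that moved on migration in both genotypes, as the stretch of DNA next to which a shared change would be looked for. RefSeq (GRCm38.p6) windows from 250 bases before to 50 after the start site were matched by symbol for 48 of the Rab genes, 60 windows in all. Of these, 6 windows held the E-box CACGTG (a palindrome, read alike on both strands), those of Rab5a, Rab20, Rab21, Rab23, Rab24 and Rab27a, where 7.15% of 32851 promoters hold it. The AP-1 site TGANTCA, the kind of site that BATF3 with JUN can bind, was in the windows of Rab15, Rab34 and Rab39b (7.81% of all promoters, both strands). These genes were too dim to be tested in either table. The IRF element, a pair of GAAA with 2 bases between, was in that of Rab19 (3.44%), and the ETS-IRF composite, GGAA and GAAA with 2 bases between, in that of Rab11b (2.72%), with both strands searched. None of these motifs was in the windows of Rab9, Rab43 or Rab32, which says only that those letters are not in them. Rab7b, Rab26, Rab37 and Rab38 had no window, so their promoters were not searched for any of these motifs. Shown are Rab9 (chrX:166479818-166480117, minus strand), the largest rise, the most upstream of 4 windows of Rab43 (chr6:87812115-87812414, minus strand), the largest fall in WT among genes with a window, and the 3 rising genes with an E-box, Rab21 (chr10:115315542-115315841, minus strand), Rab20 (chr8:11478591-11478890, minus strand) and the first window of Rab23 (chr1:33719646-33719945, plus strand), each from 5′ to 3′ with the E-box in capitals.
Rab9: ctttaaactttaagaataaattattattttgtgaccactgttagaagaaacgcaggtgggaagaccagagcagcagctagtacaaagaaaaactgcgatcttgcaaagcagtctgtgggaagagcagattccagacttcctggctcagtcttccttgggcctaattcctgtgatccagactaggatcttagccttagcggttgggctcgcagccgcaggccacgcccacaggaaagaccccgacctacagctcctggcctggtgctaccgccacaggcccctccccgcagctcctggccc
Rab43: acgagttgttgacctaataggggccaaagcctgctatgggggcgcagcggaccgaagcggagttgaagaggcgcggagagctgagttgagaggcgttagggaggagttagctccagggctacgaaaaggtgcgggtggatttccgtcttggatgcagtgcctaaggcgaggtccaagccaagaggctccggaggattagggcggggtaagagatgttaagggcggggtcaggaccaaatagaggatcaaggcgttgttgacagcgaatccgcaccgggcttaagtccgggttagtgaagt
Rab21: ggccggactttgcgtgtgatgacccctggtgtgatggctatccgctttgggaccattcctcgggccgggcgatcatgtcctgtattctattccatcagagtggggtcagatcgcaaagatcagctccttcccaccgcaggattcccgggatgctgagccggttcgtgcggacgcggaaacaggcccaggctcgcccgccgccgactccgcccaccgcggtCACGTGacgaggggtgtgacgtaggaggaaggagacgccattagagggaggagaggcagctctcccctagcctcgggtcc
Rab20: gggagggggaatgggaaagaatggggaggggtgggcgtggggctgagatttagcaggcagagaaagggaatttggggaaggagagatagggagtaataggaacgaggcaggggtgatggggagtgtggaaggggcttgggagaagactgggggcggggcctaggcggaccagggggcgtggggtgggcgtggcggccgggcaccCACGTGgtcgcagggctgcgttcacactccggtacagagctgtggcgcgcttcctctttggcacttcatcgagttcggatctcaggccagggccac
Rab23: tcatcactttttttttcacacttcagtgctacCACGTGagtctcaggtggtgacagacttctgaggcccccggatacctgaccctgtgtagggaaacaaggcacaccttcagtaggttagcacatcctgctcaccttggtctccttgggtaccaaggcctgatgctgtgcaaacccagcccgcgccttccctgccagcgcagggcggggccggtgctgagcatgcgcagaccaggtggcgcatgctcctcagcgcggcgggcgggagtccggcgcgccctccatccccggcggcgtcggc

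The second question was which Rabs follow Batf3. In resident SDLN DC1, 1 of 46 Rab genes was called between Batf3-/- and WT, where 1.84% of all genes tested were (0.847% higher and 0.997% lower). It was Rab37, known from the secretory granules of mast cells, which read 5.50, 5.72 and 5.88 on the resident WT arrays, 5.74 and 5.51 on the migratory WT arrays, 6.93, 6.73 and 7.00 on the resident Batf3-/- arrays and 5.65, 5.67 and 6.05 on the migratory Batf3-/- arrays. The 3 resident Batf3-/- arrays lay above all 8 others, and the difference was 1.19 ± 0.16 (2.28-fold higher, adjusted p = 0.00135), between 1.01 and 1.43 within the 3 replicate numbers. It was called without each of the 6 resident arrays in turn (1.09 to 1.28) and with the SD of each array in the fit (1.13 ± 0.13, adjusted p = 0.000368). On migration Rab37 fell in Batf3-/- DC1 (-1.10 ± 0.16, adjusted p = 0.000156) to the level of WT, where it did not differ between resident and migratory arrays beyond their spread (-0.07 ± 0.18). The difference between these 2 effects was -1.03 ± 0.24 (adjusted p = 0.0577). Among the cDC2 markers, Clec10a read 6.32, 5.23 and 5.35 in resident WT and 8.00, 8.14 and 8.03 in resident Batf3-/- DC1, and Mgl2 6.33, 5.74 and 5.54 and 7.43, 6.95 and 7.37, whereas the mean of the 6 markers of that list overlapped (5.13 to 6.60 and 5.84 to 6.19). Of its 5 markers tested, these 2 were called higher and the other 3 had lower values in Batf3-/- DC1, not called, with a list median of -0.36. Migratory DC markers (7 of 9 measured) averaged 6.33 to 7.00 and 7.10 to 8.25. The part of other cells in the Rab37 value was not tested.

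In spleen, no Rab gene was called between Batf3-/- and WT Irf8VENUS+ DC1 by limma, where 0.738% of all genes were (0.435% higher and 0.303% lower). At an unadjusted p under 0.05 there were 8 of 49 (16.3%), against 10.4% of all genes. Rab37 was again the largest of them. It read 4.67 and 4.66 in WT Irf8VENUS-, 5.74, 6.81 and 6.59 in WT Irf8VENUS+ and 8.14, 7.87 and 7.28 in Batf3-/- Irf8VENUS+ DC1. The 3 groups did not overlap, and the difference was 1.38 ± 0.31 between the genotypes (adjusted p = 0.118) and 1.79 ± 0.37 between WT Irf8VENUS+ and Irf8VENUS- (adjusted p = 0.340). Split by sort, the genotype difference of Rab37 was 1.73 between arrays gated with XCR1 and 0.69 between those gated without it. With array weights the genotype difference of Rab37 was 1.13 ± 0.22 and was called. The reporter comparison called 0 Rab genes, with 6 at an unadjusted p under 0.05, where 0.0233% of all genes were called (0.0155% higher and 0.00777% lower) and 7.91% passed unadjusted. Array weights called Rab37 there too (2.10 ± 0.26), as did leaving out WT Irf8VENUS+ replicate 1 (2.29 ± 0.22).

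Of the other Rabs with an unadjusted p under 0.05 between the spleen genotypes, Rab3a (-0.95 ± 0.30) and Rab28 (-0.49 ± 0.17) had lower and Rab8b (0.69 ± 0.21) and Rab21 (0.47 ± 0.19) higher values in Batf3-/- DC1, and the remaining 3 were Rabs that fell on migration in the nodes. Rab43 read 9.04 and 9.12 in WT Irf8VENUS-, 8.97, 9.0 and 9.01 in WT Irf8VENUS+ and 8.76, 8.56 and 8.64 in Batf3-/- Irf8VENUS+ DC1. Rab32 read 10.02 and 10.13 in WT Irf8VENUS-, 9.96, 10.37 and 10.09 in WT Irf8VENUS+ and 9.76, 9.78 and 9.60 in Batf3-/- Irf8VENUS+ DC1. Rab7b read 9.60 and 9.43 in WT Irf8VENUS-, 8.95, 9.43 and 9.31 in WT Irf8VENUS+ and 9.04, 8.72 and 8.62 in Batf3-/- Irf8VENUS+ DC1. For Rab43 and Rab32 all 3 Batf3-/- arrays lay below all 5 WT arrays, and for Rab7b 1 of them overlapped. The differences were -0.35 ± 0.14, -0.43 ± 0.14 and -0.44 ± 0.19 (adjusted p = 0.435, 0.319 and 0.478). In resident SDLN DC1, Rab43, Rab32 and Rab7b differed by -0.45 ± 0.26, -0.35 ± 0.19 and -0.31 ± 0.32, none called. Migratory DC markers averaged 7.97 to 8.37 in spleen Batf3-/- and 6.76 to 7.36 in WT Irf8VENUS+ DC1. Their part in these values was not tested.

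In migratory SDLN DC1, 5 of 46 Rab genes were higher in Batf3-/- than in WT and 1 was lower, where 7.13% of all genes were called higher, 2.28% lower and 9.41% in either direction. The 1 lower gene was Rab27a, which docks secretory lysosomes and exosome-bearing endosomes at the plasma membrane. Rab27a read 6.04, 6.20 and 6.35 on the resident WT arrays, 6.07 and 5.96 on the migratory WT arrays, 6.53, 6.52 and 6.29 on the resident Batf3-/- arrays and 5.14, 5.16 and 4.93 on the migratory Batf3-/- arrays. The 3 migratory Batf3-/- arrays lay below all 8 others, by -0.94 ± 0.15 against migratory WT (adjusted p = 0.00830) and by -1.37 ± 0.14 against resident Batf3-/- DC1 (adjusted p = 8.11e-06). In WT DC1 migration went with -0.18 ± 0.15 (adjusted p = 0.334), and the resident genotypes differed by 0.25 ± 0.14. Rab27a was the 1 Rab gene whose Batf3 effect was called different between migratory and resident DC1 (-1.19 ± 0.20, adjusted p = 0.0216), where 1.24% of all genes were (0.721% higher and 0.520% lower).

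The size of that difference moved little as arrays were left out, but the call of Rab27a was lost without resident WT replicate 1, 2 or 3 (-1.11, -1.19 and -1.26), migratory WT replicate 1 (-1.13) or resident Batf3-/- replicate 1 or 2 (-1.14 and -1.15), with adjusted p from 0.0501 to 0.0832. The genotype difference within migratory DC1 was -0.88, adjusted p = 0.0601, without migratory WT replicate 1. The difference of the Batf3 effect for Rab27a was also not called with the SD of each array in the fit or after median centring. In all, its call was lost in 8 of 19 alternatives. Between migratory and resident Batf3-/- DC1, a different comparison, Rab27a differed by -1.24 ± 0.17 in the fit with the SD (adjusted p = 0.000143). In spleen, Rab27a read 6.71 and 6.00 in WT Irf8VENUS-, 6.00, 5.98 and 6.57 in WT Irf8VENUS+ and 6.60, 6.52 and 6.11 in Batf3-/- Irf8VENUS+ DC1, and the genotypes overlapped (0.22 ± 0.26).

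The 5 Rab genes higher in migratory Batf3-/- than in migratory WT DC1 were Rab5b (0.88 ± 0.23), Rab11b (1.21 ± 0.27), Rab35 (1.26 ± 0.37), Rab38 (1.16 ± 0.34) and Rab43 (1.25 ± 0.29), with adjusted p from 0.0219 to 0.0498. Rab5b and Rab11b each had a second SDLN probe set (means of 7.92 beside 8.34 and 6.02 beside 8.21). Their values printed here and for migration come from the brighter probe set, and the other was not read on its own. Rab35 overlapped between the groups, since migratory Batf3-/- replicate 3 (6.11) lay below migratory WT replicate 1 (6.13). Rab11b was not called without migratory WT replicate 1 or migratory Batf3-/- replicate 1 or 2 (0.98 to 1.20). Rab5b (0.66 to 0.99), Rab35 (0.91 to 1.62) and Rab43 (1.10 to 1.30) were not called without migratory WT replicate 1 or 2 or migratory Batf3-/- replicate 1 or 2. Without migratory Batf3-/- replicate 3, 15 Rab genes were called. Leaving out any other migratory array left 1 call (WT replicate 1, Batf3-/- replicate 1 or Batf3-/- replicate 2) or 3 (WT replicate 2). Rab38 differed by 0.41 without migratory WT replicate 2 and by 1.91 without migratory WT replicate 1, and it was not called without the former or without migratory Batf3-/- replicate 1 or 2 (1.26 and 1.06). With the SD of each array in the fit none of the 6 Rab genes was called. The differences of Rab27a (-1.17 ± 0.24, adjusted p = 0.0813) and Rab38 (2.22 ± 0.47, adjusted p = 0.0815) were then larger in size, and those of Rab43 (0.15 ± 0.29), Rab11b (0.18 ± 0.28), Rab35 (0.39 ± 0.56) and Rab5b (0.43 ± 0.35) smaller. With replicate number as a block, 14 Rab genes were called, 13 higher and 1 lower. The quantile-normalised values gave 2 Rab genes higher and 1 lower, with 714 higher and 430 lower over all genes in place of 851 and 272. Rab43 had a Batf3 effect that was 1.70 ± 0.39 larger in migratory than in resident DC1 but missed the threshold (adjusted p = 0.0538). It was called with no filter on dim genes (1.70 ± 0.38, adjusted p = 0.0464), with array weights (1.88 ± 0.32, adjusted p = 0.00843), with replicate number as a block (1.90 ± 0.26, adjusted p = 0.00814) and without migratory Batf3-/- replicate 3 (2.01 ± 0.28, adjusted p = 0.00417). The block also called Rab11b (1.33 ± 0.33, adjusted p = 0.0457), Rab31 (1.45 ± 0.32, adjusted p = 0.0355) and Rab37 (-1.12 ± 0.21, adjusted p = 0.0257) for that difference, beside Rab27a. Between migratory Batf3-/- and WT DC1, 6 of 10 cDC1 markers, a list that holds the deleted Batf3, were called lower and 1 higher. Of the other markers, 1 of 4 of B cells was lower, and 2 of 3 of macrophages and monocytes and the 1 Langerhans cell marker tested were higher. Their part in the Rab differences was not tested.

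**Figure D4:**
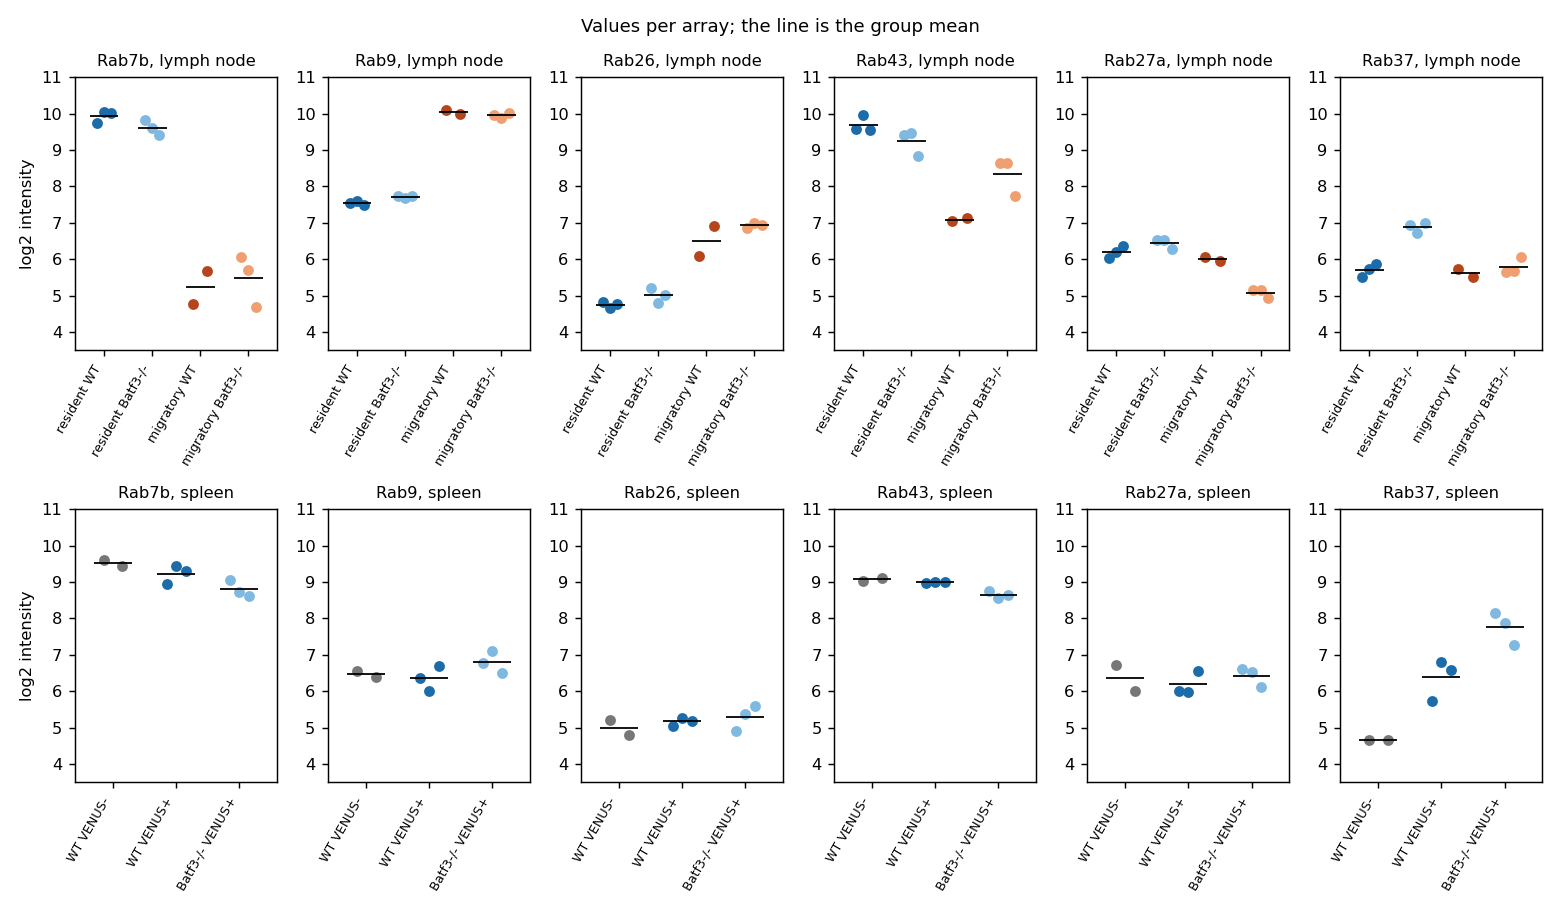
Log2 intensity of Rab7b, Rab9, Rab26, Rab43, Rab27a and Rab37 on each array (points) with the group mean (line), for the 4 SDLN groups (top) and the 3 spleen groups (bottom), which were normalized separately. Rab7b and Rab9 separate migratory from resident arrays in both genotypes, Rab27a is lowest in migratory Batf3-/- DC1 among the SDLN groups, and Rab37 is highest in resident Batf3-/- DC1 and, in spleen, in Batf3-/- Irf8VENUS+ DC1.

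Rabs known from phagosomes and cross-presentation formed a list of 13, of which 11 were tested in SDLN and 12 in spleen. In WT DC1, 2 rose on migration (Rab20 and Rab22a) and 4 fell (Rab7, Rab32, Rab35 and Rab43), with a median of -0.33, where 16.0% of all genes were called higher and 33.2% lower. In Batf3-/- DC1, 3 rose (Rab20, Rab22a and Rab38) and 4 fell (Rab7, Rab27a, Rab32 and Rab43), with a median of 0.13, where 14.1% of all genes were called higher and 22.6% lower. The counts are too few to be set apart from these shares. Rab11a, of the recycling compartment that supplies MHC class I to phagosomes, read 9.66, 9.63 and 9.53 in resident WT, 9.28 and 9.28 in migratory WT, 9.25, 9.56 and 9.49 in resident Batf3-/- and 9.40, 9.42 and 9.87 in migratory Batf3-/- DC1. Rab14, which delays phagosome maturation, read 8.91, 9.07 and 9.07 in resident WT, 8.73 and 9.15 in migratory WT, 8.95, 8.87 and 9.02 in resident Batf3-/- and 9.02, 9.04 and 9.18 in migratory Batf3-/- DC1. Neither was called on migration, with WT differences of -0.33 ± 0.17 and -0.07 ± 0.17. Rab34 (3.78 to 4.92) and Rab39 (3.95 to 4.74) stayed below the filter in SDLN.

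The Rab genes that were not tested read 3.29 to 5.08 in spleen (Rab3b, Rab4a, Rab15, Rab25, Rab27b, Rab33a, Rab34, Rab39b and Rab40b) and 2.48 to 4.92 in SDLN (Rab3a, Rab3b, Rab3c, Rab4a, Rab15, Rab17, Rab18, Rab27b, Rab33a, Rab34, Rab39, Rab39b and Rab42). Among these were the neuronal Rab3 genes and the epithelial Rab17. With no filter on dim genes, Rab42 would be called higher on migration in WT (0.90 ± 0.12) and Batf3-/- DC1 (0.82 ± 0.10), at 3.14 to 3.41 on the resident and 3.92 to 4.25 on the migratory arrays. Rab17 would be called too (0.39 ± 0.12 and 0.36 ± 0.11). The SDLN Rab genes tested but called in no comparison were Rab2a, Rab2b, Rab5a, Rab6a, Rab6b, Rab9b, Rab10, Rab11a, Rab14, Rab28, Rab30, Rab33b, Rab36, Rab40b, Rab40c and Rab44.

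Genes that act on or with Rabs were read from lists of exchange factors, GAPs, recycling factors, effectors, fusion machinery and sorting coats, and more of them were called lower than higher in migratory WT DC1, as over all genes (33.2% lower and 16.0% higher in WT, 22.6% and 14.1% in Batf3-/- DC1). Of 35 exchange factors tested, 3 were higher and 17 lower in WT, against 5 and 6 in Batf3-/- DC1. The largest were Rin3, an exchange factor for Rab5 relatives (-1.89 ± 0.39 in WT and -1.80 ± 0.35 in Batf3-/- DC1), Dennd4b (-1.92 ± 0.48 in WT) and Ric1, part of an exchange factor for Rab6 (2.07 ± 0.19 in Batf3-/- DC1). Of 32 GAPs, 4 were higher and 13 lower in WT, and 8 and 7 in Batf3-/- DC1. Tbc1d31 fell by 2.60 ± 0.23 and 1.96 ± 0.20, and Rabgap1l, a GAP for Rab22a, rose by 1.58 ± 0.17 and 2.51 ± 0.15. Of 6 genes of GDI and prenylation, which carry Rabs between membranes, 0 were higher and 3 lower in WT, and 1 and 3 in Batf3-/- DC1. They included the escort protein gene Chml (-1.73 ± 0.19 and -1.02 ± 0.17).

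The shares of all genes called on migration were 16.0% higher and 33.2% lower in WT, and 14.1% and 22.6% in Batf3-/- DC1. Of 41 Rab effectors, 4 were higher and 11 lower in WT, and 10 and 6 in Batf3-/- DC1. Lrrk2, the kinase that phosphorylates Rabs and is recruited by Rab29, had the largest difference among them. It read 8.77, 9.05 and 9.07 in resident WT, 5.46 and 6.34 in migratory WT, 9.09, 9.24 and 8.90 in resident Batf3-/- and 5.82, 5.96 and 5.45 in migratory Batf3-/- DC1. The migratory arrays lay below the resident ones in both genotypes, by -3.06 ± 0.25 in WT (adjusted p = 2.92e-06) and -3.33 ± 0.23 in Batf3-/- DC1 (adjusted p = 4.48e-07). Mical1, which binds Rabs and oxidises actin, fell by 1.81 ± 0.21 and 1.49 ± 0.19.

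Fusion and sorting machinery was also called lower more often than higher in WT, as all genes were. Of all genes, 33.2% were lower and 16.0% higher in WT, and 22.6% and 14.1% in Batf3-/- DC1. Of 42 SNARE and SM protein genes, 6 were higher and 18 lower in WT, and 8 and 9 in Batf3-/- DC1, with Stxbp3 (1.46 ± 0.20 and 1.57 ± 0.18) rising in both. Of 17 tethers, 2 were higher and 6 lower, and 2 and 3, with the exocyst gene Exoc6 falling in both (-1.33 ± 0.14 and -1.47 ± 0.13). Of 33 retromer and sorting nexin genes, 2 were higher and 16 lower, and 4 and 10. They included Vps35, the core of retromer (-1.54 ± 0.25 in WT), and Snx16 (1.36 ± 0.24 in Batf3-/- DC1). Of 6 Rab-like genes, 1 was higher and 1 lower in WT, and 1 and 2 in Batf3-/- DC1. List medians in WT ran from -0.58 for GDI and prenylation to -0.06 for the Rab-like genes, beside -0.16 over all genes tested.

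**Figure D5:**
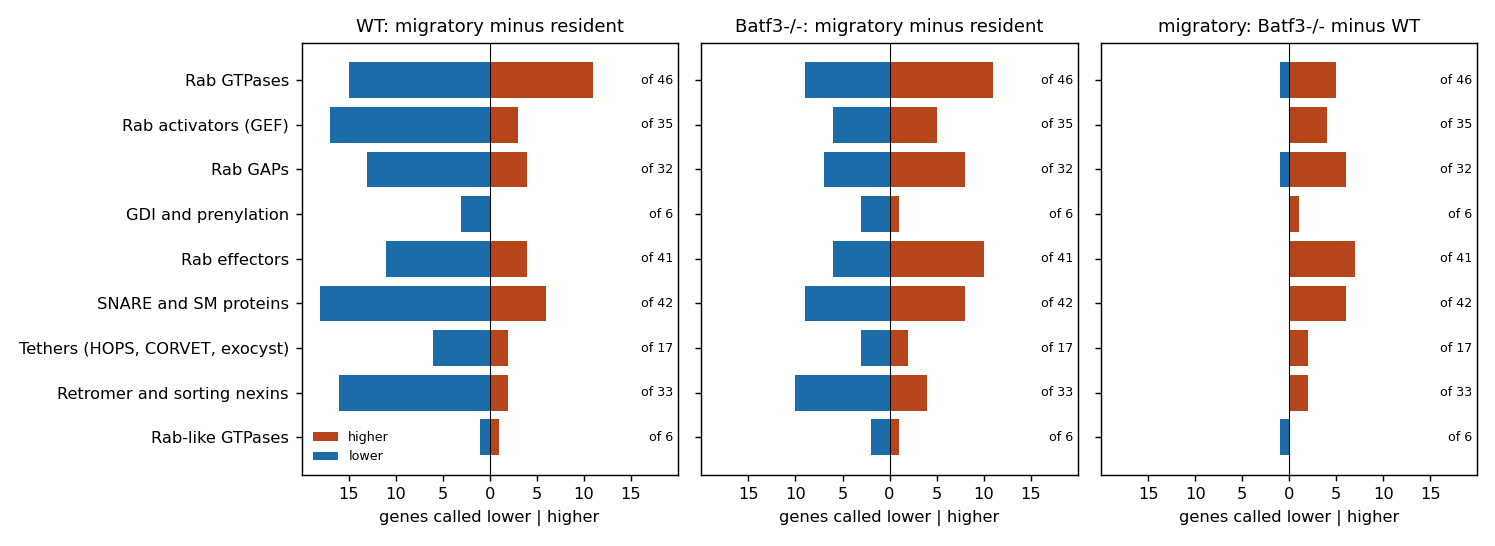
Number of genes of each list called higher (right of 0) and lower (left of 0) in 3 SDLN comparisons, with the number tested at the right edge. Exchange factors, with 3 higher and 17 lower, and retromer and sorting nexins, with 2 and 16, lean lower in migratory WT DC1, and in the right panel nearly all calls are higher in Batf3-/- DC1. All genes tested lean the same way, with 16.0% higher and 33.2% lower in the WT panel and 7.13% higher and 2.28% lower in the right panel.

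Between migratory Batf3-/- and WT DC1, 4 of 35 exchange factors, 6 of 32 GAPs, 7 of 41 effectors, 6 of 42 SNARE and SM genes, 2 of 17 tethers, 2 of 33 retromer and sorting nexin genes and 1 of 6 genes of GDI and prenylation were called higher, where 7.13% of all genes were called higher and 2.28% lower. Lower were the Rab-like gene Ift22 (-0.59 ± 0.15) and the GAP gene Tbc1d19 (-0.92 ± 0.25), the latter named after its values were seen. The higher ones included Vps18 (1.5 ± 0.39), a core subunit of the HOPS and CORVET tethers, the GAP Tbc1d1 (1.41 ± 0.29) and Vps35 (1.33 ± 0.25). The same migratory WT arrays enter both the migration and the genotype comparison. For the partner lists neither comparison is given with the SD of each array in the fit. In resident DC1 only Tbc1d31 was called (-0.93 ± 0.20, adjusted p = 0.0353), and for the difference of the Batf3 effect only Rabif, a chaperone of Rabs (0.87 ± 0.19, adjusted p = 0.0465). In spleen no gene of these lists was called in either comparison, where 0.738% of all genes were called between the genotypes and 0.0233% in the reporter comparison.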

How the data were processed

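Sorted DC1 were measured on 8 spleen and 11 SDLN arrays. The authors summarised both with RMA, per the submitters' processing notes (version not given in the sources used here). The deposited spleen values are linear intensities (1.85 to 13035.5), of which log2 was taken here, and the deposited SDLN values are already log2 (1.35 to 13.96). The tables were normalized separately, so tests ran within each. Gene names came from GEO's annotation of each platform, which can be old: 23521 of 41345 in spleen and 21789 of 35556 in SDLN carried 1 symbol, and the probe set with the highest mean stood for a gene.

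Genes reaching the table's median on at least 2 arrays were tested (12875 of 22180 in spleen, 11931 of 19938 in SDLN) with limma 3.58.1 in R 4.3.3, an intensity trend and Benjamini-Hochberg adjustment over all genes tested, with a threshold of 0.05. The spleen fit held the sort gate as a term. The code was tested on simulated data. The number of arrays limits the precision.

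Same-numbered resident and migratory Batf3-/- arrays deviated together from their group means (correlations of 0.416, 0.210 and 0.479), which by the rule used pairs them. They did not do so in every pair of the other groups. The titles give same-numbered SDLN arrays a shared code but not its meaning, so the block is an alternative, printed where it moved a count of calls.

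Members and gene lists were chosen with earlier results of these data known. Per-array values are given for members called in any comparison and for those known from cross-presentation, and for partner lists at most 2 called genes per list and comparison, those with the largest differences. Alternatives, read for the Rab genes and not for the partner lists, covered the filter, scaling, probe sets, array weights, groups fitted, replicate numbers, array SD and each array left out.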

Additional observations from a re-analysis of the deposited data

Results flagged for a closer look

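The Batf3 effect differed between migratory and resident SDLN DC1, by the test of the difference itself in limma, for 1 of 46 Rab genes. Of the partner lists it differed for 1 of 35 exchange factors and for no gene of the other lists. Over all genes tested, 1.24% were called, so neither count stands out from that share. For Rab27a the difference was -1.19 ± 0.20 (adjusted p = 0.0216): Batf3-/- minus WT was -0.94 in migratory and 0.25 in resident DC1, and all 3 migratory Batf3-/- arrays were lower than the other 8. This call was lost in 8 of 19 alternatives, the fit with the SD of each array and median centring among them. For Rabif, which encodes the Rab chaperone MSS4, the difference was 0.87 ± 0.19 (adjusted p = 0.0465). Rabif read 6.85, 6.79 and 6.65 in resident WT, 5.56 and 5.44 in migratory WT, 6.53, 6.66 and 6.61 in resident Batf3-/- and 6.20, 6.26 and 6.16 in migratory Batf3-/- DC1, so its migratory values lay below the resident ones in both genotypes and further below in WT.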

How the results depend on the processing

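Over 54 Rab differences and 776 alternatives, 657 kept their direction and their side of the threshold, 111 lost the call and 8 reversed. All 8 reversals came with the SD of the array values as a term, in migratory minus resident WT DC1: Rab11b 0.45, Rab1a 0.12, Rab1b 0.40, Rab31 1.00, Rab4b 0.18, Rab5c 0.24, Rab7 0.15 and Rab8a 1.42. With that term this comparison called 6 Rab genes, and the migratory genotype comparison and the difference of the Batf3 effect called 0. The migratory genotype comparison called 3 after quantile normalization, 14 with array weights, 0 with only the groups compared in the fit and 1 to 15 with 1 array left out. The difference of the Batf3 effect called 2 without a filter, 0 after median centring, 8 with array weights and 0 to 13 with 1 array left out: 0 without any 1 of the resident WT arrays or resident Batf3-/- replicate 1 or 2, and 13 without migratory Batf3-/- replicate 3. Array weights called 1 Rab gene in each spleen comparison and 2 in resident SDLN DC1, and the spleen reporter comparison called 0 to 1 with 1 array left out. With replicate number as a block, the migratory genotype comparison called 14 and the difference of the Batf3 effect 5, while migration called 28 in WT and 22 in Batf3-/- DC1, resident DC1 kept 1 call and spleen 0 in both comparisons; the samples of a block share a number and, in SDLN, a title code of unstated meaning. Migration calls stayed between 19 and 30 in WT in all other alternatives, and between 17 and 24 in Batf3-/- DC1. The cause of these changes was not tested. With 2 or 3 arrays a group, dim genes and small differences are the least certain.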
